A study of Mus musculus with 6 samples.

Results

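Genes of the Wnt signalling pathway were read from messenger RNA sequencing of mouse E14Tg2A embryonic stem cells that had received an antisense oligonucleotide (ASO). It targeted LINE1, an abundant family of retrotransposons, or was the control labelled RC. The genes were selected by symbol. They comprise each Wnt ligand and each Frizzled receptor numbered in the gene table, the Dkk and Sfrp antagonists, and Lrp5, Lrp6, Porcn, Axin1, Axin2, Apc, Ctnnb1, Lef1, Tcf7, Tcf7l1 and Tcf7l2. This gave 48 of 19467 symbols, namely 19 ligands, 12 receptors, 8 antagonists, the ligand-acylating enzyme gene Porcn, 3 genes of the beta-catenin destruction complex and 5 genes of beta-catenin and its nuclear partners. No measured value entered the choice of symbols, but the group was proposed with earlier results of the same comparison known. Its calls are therefore a description of these libraries and support nothing beyond them.

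Both arms came from 1 established cell line grown in serum with leukaemia inhibitory factor. Each arm received 5 nmol of its ASO by nucleofection, a form of electroporation, and cells positive for Lissamine, a red fluorophore, were sorted 48 h later. There were 3 libraries in each arm, and no arm without an ASO was analysed here. Whether replicates were separate cultures is not stated in the labels, and the spread behind each p-value may therefore be technical. In sorted bulk cells, fewer cells expressing a gene and less RNA per cell cannot be told apart.

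Wnt proteins are secreted, lipid-modified signals. Porcn attaches the lipid that lets them leave the cell and bind. At the surface they join a Frizzled receptor to the co-receptor Lrp5 or Lrp6, and secreted proteins of the Dkk and Sfrp families block these contacts. Without a signal, Axin and Apc hold beta-catenin (Ctnnb1) in a complex that marks it for destruction; with a signal, beta-catenin reaches the nucleus and acts through Tcf7, Lef1, Tcf7l1 and Tcf7l2. In mouse embryonic stem cells the pathway is known for sustaining self-renewal, in large part by relieving repression by Tcf7l1.

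The libraries held between 19954026 and 31704616 gene-assigned reads. Levels are given as CPM, read counts scaled to each library's gene-assigned total after adjustment by TMM (trimmed mean of M values), and errors of levels are SD with n = 3 libraries an arm. Of the 48 genes, 43 passed the filter on low counts and were tested with edgeR's quasi-likelihood test, adjusted by the Benjamini-Hochberg method over all 14725 genes tested. The threshold for a call was an adjusted p of 0.05. The calls came to 8 genes higher with the LINE1 ASO, each of them a ligand, and 1 lower, the antagonist Sfrp1. Among all genes tested, 4.93% were called higher and 1.17% lower.

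Wnt9a, which acts in joint formation, had the largest difference in mean CPM among the called ligands. Its level was 2.92, 6.54 and 2.89 CPM in RC replicates 1 to 3 and 14.2, 12 and 10.2 CPM in the LINE1 ASO replicates. RC replicate 2 was the highest control library, and the arms did not overlap. The means were 4.12 ± 2.10 and 12.1 ± 1.99 CPM, which is 1.55 ± 0.32 (SE) as a log2 fold change (adjusted p = 0.0364, edgeR with Benjamini-Hochberg adjustment). Without RC replicate 2 the log2 fold change was 2.04.

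Wnt8b, a ligand of the developing forebrain, was near the detection limit in control cells. It had 4, 4 and 13 reads in RC and 61, 43 and 38 reads with the LINE1 ASO. That is 0.208, 0.150 and 0.464 CPM against 1.88, 1.39 and 1.40 CPM, with RC replicate 3 above the other control libraries and below every LINE1 ASO library. The log2 fold change was 2.45 ± 0.39 (SE; adjusted p = 0.0160, edgeR with Benjamini-Hochberg adjustment).

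Wnt10b, known from hair follicle and bone, rested on the fewest reads of the called genes, with 2, 1 and 2 reads in RC and 13, 12 and 12 with the LINE1 ASO. Its CPM were 0.104, 0.0376 and 0.0714 against 0.401, 0.387 and 0.441, so the LINE1 ASO libraries lay close together and above the controls. The log2 fold change was 2.51 ± 0.44 (SE; adjusted p = 0.0209, edgeR with Benjamini-Hochberg adjustment). Wnt9b, which induces kidney tubules, had 3, 4 and 3 reads in RC and 22, 19 and 11 reads with the LINE1 ASO. In CPM these were 0.156, 0.150 and 0.107 against 0.678, 0.612 and 0.404. LINE1 ASO replicate 3 was the lowest of its arm and still above each control, and the log2 fold change was 2.03 ± 0.39 (SE; adjusted p = 0.0289).

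The RefSeq start regions of these 4 ligands, which had the largest log2 fold changes, are shown for their base composition. Each runs from 250 bases before to 50 bases after the annotated start, 5′ to 3′ on the gene's strand, on GRCm38.p6 (chr15:98778101-98778400, minus strand, for Wnt10b; chr19:44493222-44493521, plus strand, for Wnt8b; chr11:103749772-103750071, minus strand, for Wnt9b; chr11:59306680-59306979, plus strand, for Wnt9a). Capitals mark CpG dinucleotides.
Wnt10b: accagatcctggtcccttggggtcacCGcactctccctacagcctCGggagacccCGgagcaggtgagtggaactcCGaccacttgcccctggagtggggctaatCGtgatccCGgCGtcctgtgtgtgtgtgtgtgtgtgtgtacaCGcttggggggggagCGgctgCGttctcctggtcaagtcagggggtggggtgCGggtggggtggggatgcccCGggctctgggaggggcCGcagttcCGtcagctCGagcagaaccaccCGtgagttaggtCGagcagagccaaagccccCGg
Wnt8b: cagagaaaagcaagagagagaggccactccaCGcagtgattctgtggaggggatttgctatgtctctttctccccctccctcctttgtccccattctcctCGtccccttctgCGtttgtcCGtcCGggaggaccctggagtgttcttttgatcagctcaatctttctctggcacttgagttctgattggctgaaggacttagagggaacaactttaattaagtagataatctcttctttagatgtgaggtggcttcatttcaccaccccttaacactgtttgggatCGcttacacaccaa
Wnt9b: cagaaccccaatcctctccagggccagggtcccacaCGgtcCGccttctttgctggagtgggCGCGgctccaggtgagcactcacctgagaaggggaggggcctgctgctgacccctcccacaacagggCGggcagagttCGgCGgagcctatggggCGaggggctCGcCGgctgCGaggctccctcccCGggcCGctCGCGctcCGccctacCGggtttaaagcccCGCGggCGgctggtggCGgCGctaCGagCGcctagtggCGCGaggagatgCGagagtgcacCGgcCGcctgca
Wnt9a: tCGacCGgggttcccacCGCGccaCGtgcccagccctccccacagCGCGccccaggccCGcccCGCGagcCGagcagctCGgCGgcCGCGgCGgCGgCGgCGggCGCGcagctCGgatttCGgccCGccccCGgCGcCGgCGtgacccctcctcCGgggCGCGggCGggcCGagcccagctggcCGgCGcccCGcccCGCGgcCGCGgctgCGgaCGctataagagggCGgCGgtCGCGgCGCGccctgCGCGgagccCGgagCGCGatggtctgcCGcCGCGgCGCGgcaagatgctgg

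The 4 start regions differed widely in CpG content. The Wnt9a region held 58 CpG in its 300 bases, Wnt9b 29, Wnt10b 18 and Wnt8b 6. Start regions were used for 31 of the 48 genes. Regions on chromosome 18, where Wnt8a, Apc and Fzd8 lie, were left out of the selected genes. The remaining genes without one, among them Wnt10a, Wnt7b, Wnt5a, Sfrp1 and Porcn, had no region listed. The called ligands Wnt8a and Wnt10a are therefore not in the medians. The 6 called ligands with a start region had a median of 10 CpG per 100 bases and of 74.2% GC. The medians were 8.83 CpG and 68.2% GC for the other ligands, and 2.33 CpG and 52.7% GC for all 32851 regions listed. The core of the TCF/LEF motif, searched as CTTTGAT or CTTTGTT on both strands, was present in 0 of the 6 regions of called ligands, in 3 of 12 regions of other ligands and in 9.33% of all regions. The TATA sequence TATAAA, also searched on both strands and counted whether or not a match overlapped the other motif, was present in 0 of the 6, in 1 of the 12 and in 13.6% of all regions. A missing match says only that these letters are not in the window. The deposited counts were made on another build (mm9), so no measurement is placed on these coordinates.

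The other 4 called ligands had smaller log2 fold changes. Wnt6, which overlaps Gm29539 on the other strand in GENCODE vM21, had 1.61, 1.35 and 1.79 CPM in RC and 4.28, 3.29 and 4.08 CPM with the LINE1 ASO. Its arms lay far apart relative to their spread, and at 1.29 ± 0.20 (SE) its log2 fold change had the smallest adjusted p of the group (0.0146, edgeR with Benjamini-Hochberg adjustment). Wnt3a, the ligand used most often to activate the pathway in stem cell culture, had 0.625, 0.563 and 0.428 CPM in RC and 1.29, 1.51 and 1.21 CPM with the LINE1 ASO. Each LINE1 ASO library was above each control, and the log2 fold change was 1.33 ± 0.26 (SE; adjusted p = 0.0291). Wnt10a, a ligand of tooth and hair, had 6, 7 and 7 reads in RC against 32, 19 and 18 reads. In CPM this was 0.313, 0.263 and 0.250 against 0.986, 0.612 and 0.661, highest in LINE1 ASO replicate 1, and the log2 fold change was 1.46 ± 0.33 (SE; adjusted p = 0.0457). Wnt8a, a ligand of the early embryo, moved least, from 4.64, 3.19 and 3.64 CPM to 6.56, 6.70 and 6.06 CPM. The arms did not overlap, and its log2 fold change of 0.76 ± 0.18 (SE) had an adjusted p of 0.0489, close to the threshold.

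**Figure D1:**
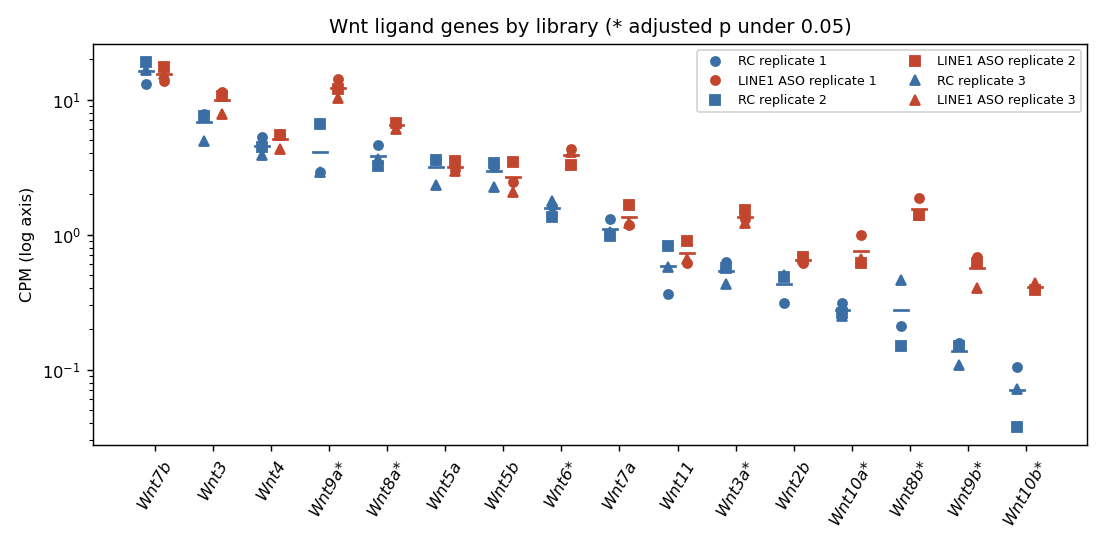
CPM (log axis) of the 16 tested Wnt ligand genes in each library, ordered by the RC mean; shapes give the replicate number, short lines the arm means, and an asterisk an adjusted p under 0.05. The 8 called ligands have no overlap between arms, while Wnt7b, the ligand with the highest CPM, has overlapping arms.

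Among the other 8 tested ligands none was called by edgeR, 1 was higher at an unadjusted p under 0.05 and DESeq2 called 0. Over all genes tested, 13.5% were higher and 8.60% lower at that unadjusted level, and DESeq2 called 6.37% higher and 3.56% lower. Wnt7b, a ligand of lung and kidney development, had the highest control level at 13.1, 18.9 and 16.4 CPM in RC and 13.7, 17.3 and 15.5 CPM with the LINE1 ASO. The arms overlapped fully, with a log2 fold change of -0.06 ± 0.16 (SE). Wnt3, required for the primitive streak in the mouse embryo, had 7.87, 7.55 and 4.89 CPM in RC and 11.4, 10.7 and 7.86 CPM with the LINE1 ASO. Replicate 3 was the lowest library of each arm and the arms overlapped by a small margin. The log2 fold change was 0.57 ± 0.23 (SE; adjusted p = 0.192, edgeR with Benjamini-Hochberg adjustment), and with the replicate number as a block the adjusted p was 0.00218. Wnt5a, the prototype of ligands that signal without beta-catenin, had 3.54, 3.57 and 2.32 CPM against 3.02, 3.51 and 2.97 CPM, with a log2 fold change of 0.02 ± 0.22 (SE). Wnt4, Wnt5b, Wnt7a, Wnt11 and Wnt2b had log2 fold changes from -0.14 to 0.55.

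Wnt1, Wnt2 and Wnt16 did not pass the filter. Wnt1 had 1, 0 and 0 reads in each arm, and Wnt2 had 0, 0 and 3 reads in RC and 2, 2 and 0 with the LINE1 ASO. Wnt16 had 5, 12 and 4 reads against 6, 8 and 6. A difference between arms was therefore not tested for these 3 ligands.

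The order of the ligands by level shifted between the arms. Per kilobase of exon (GENCODE vM21, GRCm38), Wnt7b had the highest mean level in RC at 3.50 CPM per kilobase, followed by Wnt3 at 2.20, Wnt8a at 2.19 and Wnt9a at 1.24. With the LINE1 ASO the order was Wnt8a at 3.69, Wnt9a at 3.65, Wnt7b at 3.36 and Wnt3 at 3.25 CPM per kilobase, and each of these 4 differed from its neighbour in that order by less than the SD of 1 of the pair. In RC, Wnt3 and Wnt8a were that close, while Wnt7b and Wnt9a stood apart from them by more than their SD. Summed over the 19 ligands, the level was 45.9, 52.9 and 41.7 CPM in RC and 69.1, 70.6 and 59.9 CPM with the LINE1 ASO. All LINE1 ASO libraries were above all RC libraries, and the ratio of the mean sums was 1.42.

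The called ligands were genes of low abundance, and low-abundance genes were called higher more often across the whole table. Of genes with a control mean under 1 CPM, 15.8% were called higher and the median log2 fold change was 0.46; there 5 of 7 tested ligands were called. From 1 to 10 CPM 6.24% of genes were called higher, and 3 of 8 tested ligands. At 10 CPM or more 2.27% were called higher and 1.82% lower, and the 1 tested ligand, Wnt7b, was not called. The count filter's minimum was 0.357 CPM, here scaled by library totals without the TMM adjustment. Wnt10a, Wnt10b and Wnt9b reached it in 0 RC libraries, and Wnt8b in 1. These 4 passed the filter because all 3 of their LINE1 ASO libraries reached it. Dkk1, Wnt11 and Wnt2b, which were not called, reached it in 2 RC libraries and also needed the LINE1 ASO arm to pass. A gene that enters through the arm where it is high tends to differ, so the count of called ligands is not support for a difference of the family.

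**Figure D2:**
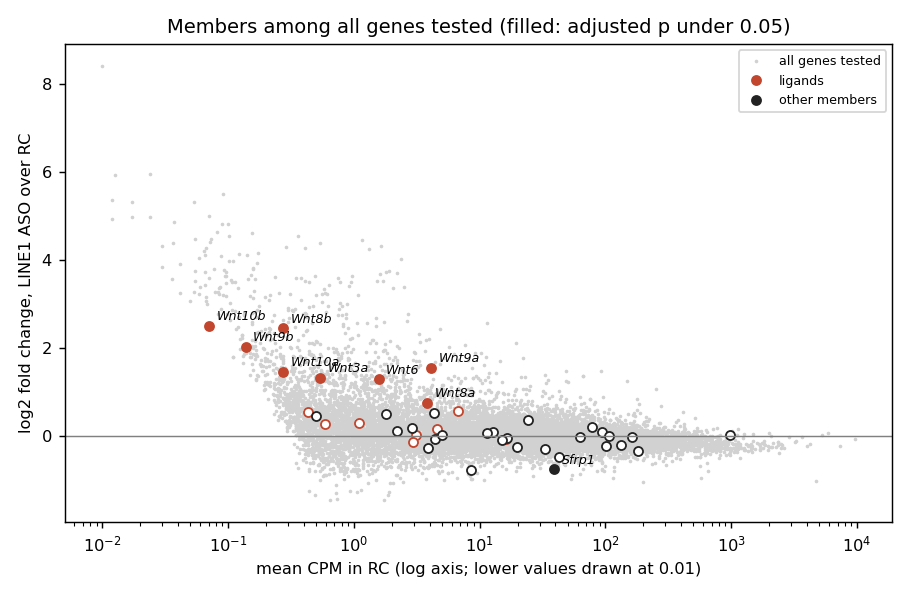
Log2 fold change (LINE1 ASO over RC) against mean RC level in CPM (log axis) for all 14725 genes tested (grey), ligands (red) and the other selected genes (black); filled points have an adjusted p under 0.05. The called ligands lie at or below 4.12 CPM in RC, in the range where grey points also spread upward.

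Porcn, the enzyme gene for ligand acylation, had 41.8, 43.5 and 43.5 CPM in RC and 23.8, 35.4 and 33.2 CPM with the LINE1 ASO. The control libraries were close together, LINE1 ASO replicate 1 was the lowest, and the arms did not overlap. The log2 fold change was -0.48 ± 0.14 (SE) and was not called (adjusted p = 0.0989, edgeR with Benjamini-Hochberg adjustment). With the replicate block the adjusted p was 0.00315 and with DESeq2 0.0238. Wls, which carries acylated ligands to the cell surface, had means of 12.7 ± 3.59 and 11.9 ± 3.00 CPM.

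No receptor gene was called by edgeR or by DESeq2 among the 12 tested. Over all genes tested, edgeR called 4.93% higher and 1.17% lower and DESeq2 6.37% and 3.56%, so 0 of 12 is near these shares. At an unadjusted edgeR p under 0.05, 2 receptors were higher and 2 lower, where 13.5% of all genes tested were higher and 8.60% lower. The Frizzled gene with the most reads was Fzd5, with 179, 160 and 210 CPM in RC and 129, 141 and 163 CPM with the LINE1 ASO. RC replicate 2 fell inside the LINE1 ASO range, and the log2 fold change was -0.34 ± 0.12 (SE; adjusted p = 0.153, edgeR with Benjamini-Hochberg adjustment). Fzd7, per kilobase the most abundant receptor in both arms, had 122, 143 and 133 CPM against 107, 116 and 125 CPM, overlapping at the margin, with a log2 fold change of -0.20 ± 0.09 (SE). The co-receptors differed in sign. Lrp5 had 89.8, 119 and 93.7 CPM in RC and 74.0, 101 and 83.3 CPM with the LINE1 ASO, a log2 fold change of -0.23 ± 0.14 (SE). Lrp6 had 87.8, 97.9 and 96.9 CPM against 97.1, 102 and 103 CPM, a log2 fold change of 0.10 ± 0.07 (SE). Both co-receptors overlapped between arms, Lrp6 by a small margin.

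With the replicate number as a block, Fzd10 and Fzd6 were called higher and Fzd3, Fzd5, Fzd7 and Lrp5 lower, and these names were taken after the values were seen. Over the 43 genes the block gave 12 higher and 8 lower, beside 17.6% higher and 16.1% lower among all genes tested with it. Fzd10 went from a mean of 24.1 ± 3.05 to 31.3 ± 2.70 CPM and Fzd6 from 4.30 ± 0.92 to 6.18 ± 0.81 CPM, each with no overlap between arms. Summed over the 12 receptors the level was 556, 593 and 604 CPM in RC and 490, 543 and 551 CPM with the LINE1 ASO, a ratio of 0.903. Fzd5, with means of 183 and 144 CPM, made up the largest part of the difference. Of the 12 receptors, 6 had a log2 fold change above 0, and the median was 0.01.

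Sfrp1, a secreted protein that binds Wnt ligands through a Frizzled-like domain, was the only selected gene called lower. It had 33.3, 40.3 and 44.0 CPM in RC and 17.8, 25.1 and 27.4 CPM with the LINE1 ASO. Every LINE1 ASO library was below every RC library, and replicate 1 was lowest in each arm. The log2 fold change was -0.75 ± 0.18 (SE), with an adjusted p of 0.04997, at the edge of the threshold (edgeR with Benjamini-Hochberg adjustment). Sfrp4, of the same family, had a similar log2 fold change of -0.77 ± 0.21 (SE) that was not called (adjusted p = 0.0744). Its levels were 8.02, 8.98 and 8.53 CPM in RC and 3.79, 6.48 and 4.74 CPM with the LINE1 ASO, with no overlap, and the replicate block (adjusted p = 0.00169) and DESeq2 (0.00838) both called it lower.

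Sfrp2, the second most abundant antagonist in RC, overlapped between arms at 16.5, 21.2 and 12.2 CPM in RC and 15.6, 18.3 and 14.1 CPM with the LINE1 ASO. Dkk1, which blocks Lrp5 and Lrp6 and is itself a target of the pathway, had 0.625, 0.225 and 0.643 CPM against 0.925, 0.483 and 0.624 CPM. Its log2 fold change of 0.47 ± 0.44 (SE) was close to its standard error. Dkk3 and Sfrp5 had log2 fold changes of 0.01 and 0.12. Dkk2 and Dkk4 did not pass the filter, with 2, 2 and 1 reads against 3, 1 and 1 for Dkk2 and 0, 0 and 1 against 10, 2 and 1 for Dkk4. Summed over the 8 antagonists the level was 64.1, 79.6 and 72.6 CPM in RC and 44.6, 60.1 and 53.7 CPM with the LINE1 ASO, a ratio of 0.732, with Sfrp1 making up most of the difference.

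**Figure D3:**
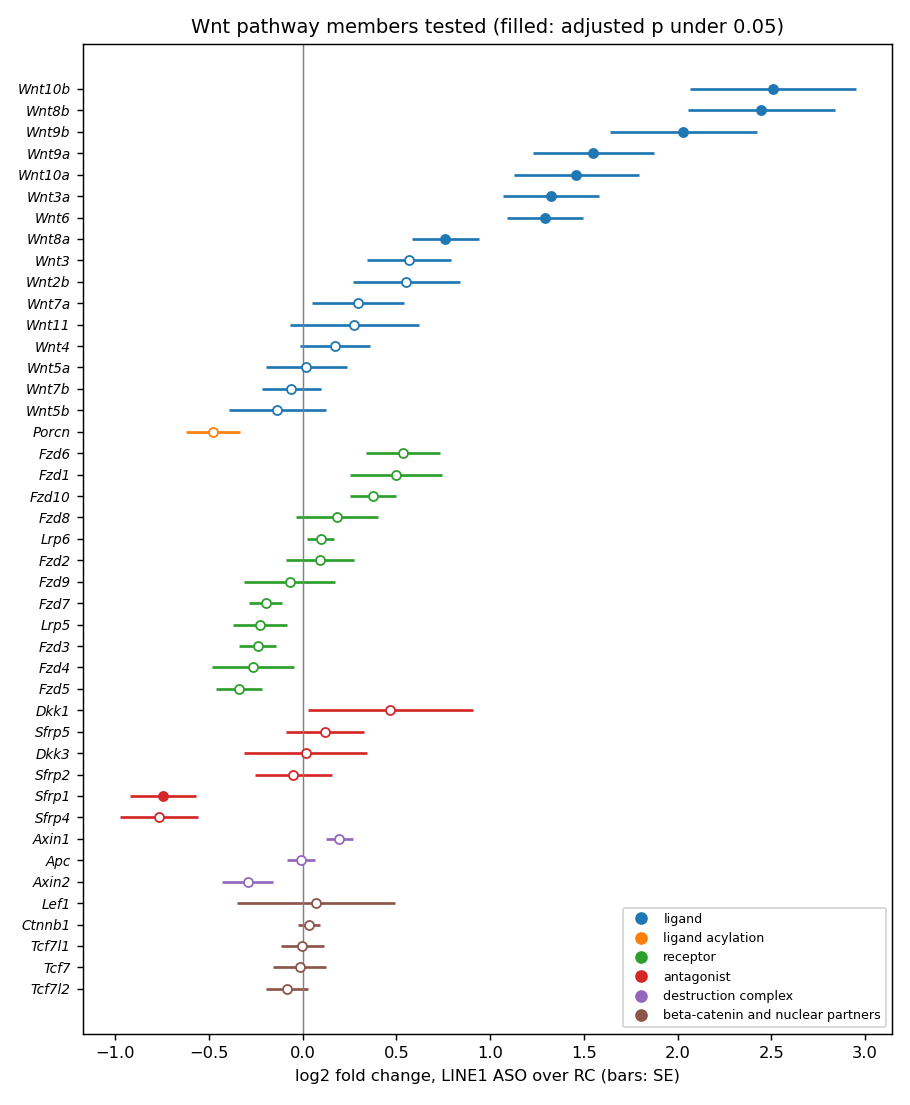
Log2 fold change (LINE1 ASO over RC) with its SE for the 43 selected genes tested, by class; filled points have an adjusted p under 0.05. The 8 filled ligands lie between 0.76 and 2.51, Sfrp1 at -0.75, and the beta-catenin group between -0.08 and 0.07.

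The genes of beta-catenin and its nuclear partners had log2 fold changes from -0.08 to 0.07. Ctnnb1, which encodes beta-catenin, had 978, 977 and 991 CPM in RC and 1026, 965 and 1022 CPM with the LINE1 ASO, a log2 fold change of 0.03 ± 0.06 (SE). Tcf7l1, the repressor of the stem cell programme, had 116, 93.7 and 112 CPM against 110, 93.9 and 117 CPM, and replicate 2 was lowest in both arms. Tcf7, which activates with beta-catenin, had 59.7, 73.2 and 54.6 CPM against 55.1, 72.4 and 57.7 CPM, with replicate 2 highest in both arms. Lef1, another activator and a pathway target, varied more within an arm than between arms, at 16.8, 4.96 and 12.4 CPM in RC and 15.4, 7.77 and 12.5 CPM with the LINE1 ASO. None of the 5 genes was called by edgeR, with 0 at an unadjusted p under 0.05, or by DESeq2. Over all genes tested, edgeR called 4.93% higher and 1.17% lower, and 13.5% and 8.60% were so at the unadjusted level. DESeq2 called 6.37% higher and 3.56% lower. For as few as 5 genes, 0 calls is near these shares and not a result about the class.

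Axin2, the feedback inhibitor commonly read as a measure of pathway output, had 31.2, 36.0 and 31.2 CPM in RC and 25.0, 31.9 and 23.4 CPM with the LINE1 ASO. LINE1 ASO replicate 2 overlapped the controls, and the log2 fold change was -0.29 ± 0.13 (SE; adjusted p = 0.252, edgeR with Benjamini-Hochberg adjustment). It was lower within each replicate number, and the replicate block called it lower (adjusted p = 0.00668). Axin1, the scaffold of the destruction complex, had 79.7, 76.0 and 80.8 CPM against 94.8, 84.7 and 91.3 CPM, with no overlap. At 0.20 ± 0.07 (SE) its log2 fold change was not called (adjusted p = 0.165, edgeR) but was called higher with the replicate block (adjusted p = 0.00977). Apc, the other scaffold, had 160, 158 and 174 CPM against 173, 153 and 162 CPM, with a log2 fold change of -0.01 ± 0.07 (SE). By ranges alone, 12 of the 43 genes were higher with no overlap between arms and 4 lower, where 16.8% and 11.9% of all genes tested were.

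**Figure D4:**
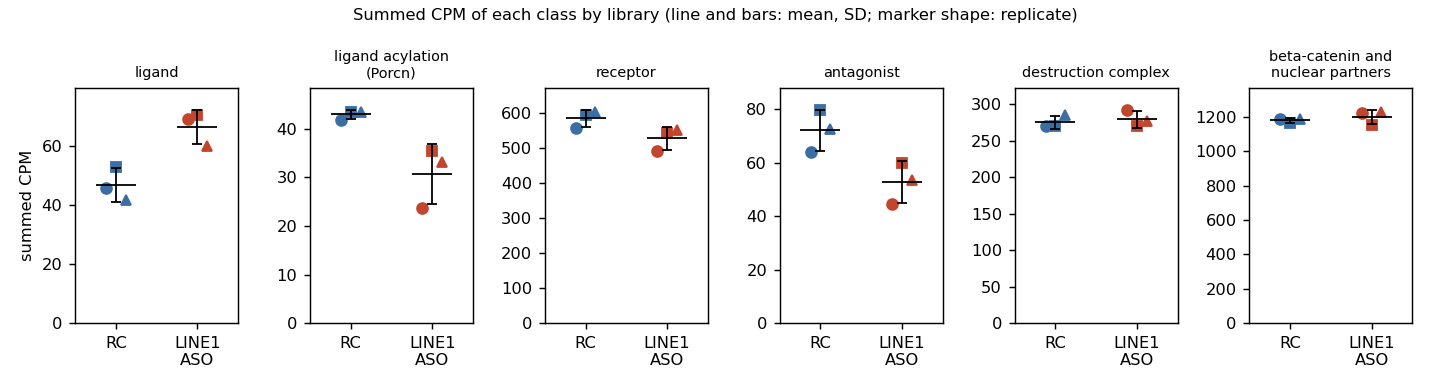
Summed CPM of each class in each library, with axes from 0; colours give the arm, shapes the replicate number, and lines with bars the mean and SD (n = 3). The arms do not overlap for ligands, Porcn, receptors and antagonists, with ratios of 1.42, 0.717, 0.903 and 0.732, and overlap for the other classes.

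The remaining pathway genes and known targets were read from lists that leave out the 48 genes. Of 126 such genes in the table, 118 were tested, 5 were called higher and 1 lower, and the median log2 fold change was -0.01, against 0.01 for all genes. These counts were near the shares over all genes, 4.93% and 1.17%, so the genes named next are values and not a result about the list. With the replicate block the counts were 18 and 21, again near the shares over all genes of 17.6% and 16.1%. Dvl3, a Dishevelled protein that relays the signal from Frizzled, rose from 28.1 ± 0.93 to 36.9 ± 1.83 CPM (adjusted p = 0.0355, edgeR with Benjamini-Hochberg adjustment). Csnk1g1, a casein kinase 1 gene, rose from 51.9 ± 5.42 to 73.6 ± 6.86 CPM (adjusted p = 0.0363). Bcl9l, a beta-catenin co-activator, rose from 19.8 ± 0.89 to 31.5 ± 6.06 CPM, highest in LINE1 ASO replicate 1 at 38.4 CPM (adjusted p = 0.0383). Wdr5, a subunit of histone methyltransferase complexes, fell from 309 ± 8.43 to 256 ± 10.3 CPM (adjusted p = 0.0476). Of 29 tested extracellular and membrane genes, 0 were called by edgeR or DESeq2, and 4 were higher at an unadjusted p under 0.05, near the 13.5% of all genes. With the replicate block 7 of the 29 were called higher and 2 lower, where 17.6% and 16.1% of all genes tested were.

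The list of transcriptional targets, which includes Axin2, Lef1, Tcf7 and Dkk1, had 34 tested genes, 2 of them called higher and 0 lower, with a median log2 fold change of -0.02. DESeq2 called 2 higher and 1 lower, and the replicate block 3 and 6. Over all genes tested, edgeR called 4.93% higher and 1.17% lower and DESeq2 6.37% and 3.56%. The shares with the block were 17.6% and 16.1%. The genes named next are therefore values and not a result about the list. Msx1, a homeobox gene, rose from 0.893 ± 0.24 to 3.62 ± 1.30 CPM (adjusted p = 0.0167, edgeR with Benjamini-Hochberg adjustment). Cd44, an adhesion receptor, rose from 2.56 ± 0.15 to 4.48 ± 0.56 CPM (adjusted p = 0.0383). The other targets named here were not called by edgeR. Sp5 had 17.1, 14.9 and 10.2 CPM in RC and 10.9, 16.4 and 6.98 CPM with the LINE1 ASO, and T, the Brachyury gene, had 26.9, 28.8 and 14.3 CPM against 12.2, 25.4 and 11.1 CPM. Both overlapped between arms and were lowest in replicate 3 of each arm. Cdx1 had 19.1, 34.7 and 25.3 CPM against 7.58, 21.3 and 13.6 CPM, a log2 fold change of -0.90 ± 0.36 (SE). edgeR did not call it (adjusted p = 0.197), and with the replicate block it was called lower (adjusted p = 0.000199). Nkd1, Rnf43 and Znrf3, which restrain the pathway, had log2 fold changes of 0.19, -0.65 and 0.18, none of them called, while Rnf43 was called lower with the replicate block.

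The 9 genes listed as repressed by Tcf7l1, among them Esrrb, Tfcp2l1, Klf2 and Nanog, each had a log2 fold change below 0, with a median of -0.28. edgeR called 0 of them, 4 were lower at an unadjusted p under 0.05, DESeq2 called 1 lower and the replicate block 6. The shares lower over all genes were 1.17% with edgeR, 8.60% unadjusted, 3.56% with DESeq2 and 16.1% with the block. Esrrb had means of 641 ± 79.4 and 492 ± 105 CPM and Tfcp2l1 561 ± 113 and 403 ± 95.9 CPM. Nanog had 41.3 ± 3.24 and 35.5 ± 8.52 CPM.

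Markers of other cell types moved with the arms in part. All 10 embryonic stem cell markers were expressed in every library, and each had a log2 fold change below 0, with a median of -0.27. edgeR called 1 of them lower, Pou5f1, from 1058 ± 70.2 to 824 ± 44.9 CPM, and 5 were lower at an unadjusted p under 0.05, while DESeq2 called 3 lower and the replicate block 8. Their summed level was 5684 to 5962 CPM in RC and 4368 to 5005 CPM with the LINE1 ASO, a ratio of 0.814. All 9 markers of the 2-cell-like state in the table were called higher, and their summed level was 9.36 to 12.1 CPM in RC and 112 to 285 CPM with the LINE1 ASO, highest in replicate 1. Of the 8 called ligands, 5 were also highest in LINE1 ASO replicate 1 (Wnt9a, Wnt6, Wnt10a, Wnt8b and Wnt9b), 2 in replicate 2 (Wnt8a and Wnt3a) and 1 in replicate 3 (Wnt10b). Among primitive endoderm markers 2 of 9 tested were called higher, Pdgfra and Cubn, and 1 lower, Lama1; among trophoblast markers 1 of 9 was called higher, Krt7. edgeR called 0 fibroblast, primitive streak, epiblast or neural markers, and 1, 1, 2 and 0 of them had an unadjusted p under 0.05. DESeq2 called 1 epiblast and 1 neural marker higher and 0 of the fibroblast and primitive streak markers. With the replicate block, 1 fibroblast marker was called higher and 3 lower, and 3 epiblast markers higher and 1 lower. The block also called 1 primitive streak and 1 neural marker higher. It called 3 primitive endoderm markers higher and 2 lower, and 5 trophoblast markers higher and 1 lower. Over all genes tested, edgeR called 4.93% higher and 1.17% lower, and 13.5% and 8.60% at the unadjusted level. The shares were 6.37% and 3.56% with DESeq2, and 17.6% and 16.1% with the replicate block. The single trophoblast call without the block is a value and not a result about that list. The fibroblast markers Dcn and Lum were at 0 to 0.185 CPM in every library, but other markers of that list were expressed. The 12 listed fibroblast markers summed to 125, 194 and 134 CPM in RC and 110, 175 and 128 CPM with the LINE1 ASO. The part of these cell states in the ligand levels was not tested.

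The calls of the selected genes depended on single libraries, as did those of the whole table. When RC replicate 1, or replicate 1 or 3 of the LINE1 ASO arm, was left out, edgeR called 0 of them, while 11, 8 and 10 were higher and 5, 3 and 5 lower at an unadjusted p under 0.05. In the same 3 fits 169, 286 and 270 of all 15046, 14811 and 14951 genes tested were called higher and 2, 13 and 7 lower, fewer than the 726 and 173 with all libraries, and 10.5%, 9.65% and 10.5% were higher and 6.55%, 6.50% and 6.34% lower at the unadjusted level. Without RC replicate 3 only Wnt8b was called, beside 1.06% of all genes higher and 0.0267% lower. Without RC replicate 2 or LINE1 ASO replicate 2, 6 of the 8 ligands were called in each case, beside 6.92% and 5.06% of all genes called higher. The sign of the log2 fold change of the 8 ligands and Sfrp1 was the same in all these fits, with adjusted p reaching 0.190 for Wnt8a and 0.178 for Sfrp1.

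**Figure D5:**
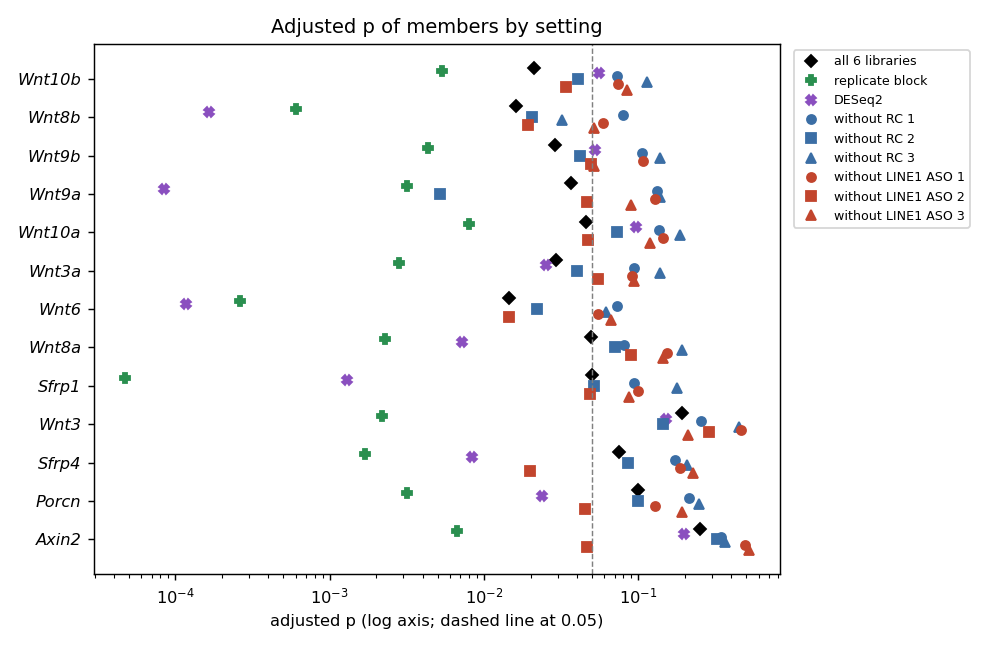
Adjusted p (log axis) of the 9 called genes and of Wnt3, Sfrp4, Porcn and Axin2 with all 6 libraries, with the replicate block, with DESeq2 and without each library; the dashed line marks 0.05. The replicate block puts all 13 genes left of the line, and leaving out RC replicate 1 puts all 13 right of it.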

How the data were processed

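Raw read counts per gene symbol were deposited by the authors, 1 column per library. Per the submitters' processing notes, the build was mm9 and the tools were HTSeq 0.6.1p1, TopHat2 2.0.9, DESeq2 1.12.3 and R 3.3.0. Whether counting used strand is not given in the sources used here. Among the ligands, Wnt6, Wnt7b, Wnt5a, Wnt5b and Wnt11 overlap a gene on the other strand in GENCODE vM21. So do Sfrp2, Fzd3, Fzd5, Fzd6, Axin1, Axin2, Apc, Ctnnb1, Lef1, Tcf7 and Tcf7l1. For all of these, reads of the overlapping stretch may not be told apart.

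The deposited counts went unchanged into edgeR 4.0.16 (R 4.3.3). Genes were kept by filterByExpr (minimum count 10, minimum total 15), scaled by TMM and tested with robust quasi-likelihood F tests, adjusted by the Benjamini-Hochberg method over 14725 genes. The SE of a log2 fold change is its size divided by the square root of F. The steps were also tested on simulated data. A second deposited table, of repeats, was not used.

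The selected genes and all lists were chosen with earlier results of these data known. Values in every library are given for each called gene, the 2 genes with the highest control mean in each class of at least 2, and the panel Axin2, Lef1, Tcf7, Tcf7l1, Ctnnb1, Porcn, Lrp5, Lrp6, Dkk1, Wnt3, Wnt3a, Wnt5a and Fzd7. From each other list up to 6 called genes by smallest p are named, with the targets Sp5, T, Cdx1, Nkd1, Rnf43 and Znrf3. Other names were chosen after their values were seen.

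Replicates carry the numbers 1 to 3 in both arms, with no label on what they share. For log2(CPM + 1), same-numbered libraries deviated from their arm means with correlations of 0.559, 0.750 and 0.556, and differently numbered ones with -0.609 to 0.267. With all 3 above 0.1, same-numbered libraries were taken as pairs. A fit with the number as a block is given where it changes the call of a selected gene. For other genes it is given mainly as counts by list. The calls given first come from the fit without the block. Alternatives were the replicate block, DESeq2 1.42.0, scaling by RLE factors or by library totals, filtering at 1 CPM or not at all, a 2-fold minimum, leaving out each library and leaving out both replicate 2 libraries. Start regions and their coordinates are from RefSeq (GRCm38.p6), and exon lengths from GENCODE vM21.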

Additional observations from a re-analysis of the deposited data

How the results depend on the processing

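With 8 selected genes called higher and 1 lower in the fit described, DESeq2 called 5 and 3, a filter of 1 CPM 4 and 0, library totals 9 and 0, and a 2-fold minimum 7 and 0. The replicate block called 12 and 8, and the fit without both replicate 2 libraries 10 and 3. Leaving out 1 library gave 0 to 6 higher and 0 to 4 lower. The whole table moved in the same fits. Of all genes, 4.93% were called higher and 1.17% lower in the fit described, 6.37% and 3.56% with DESeq2, 4.49% and 1.31% with the 1 CPM filter, 6.66% and 0.34% with library totals, 3.36% and 0.00679% with the 2-fold minimum, 17.6% and 16.1% with the block and 12.2% and 8.30% without both replicate 2 libraries. RLE factors (7 and 1) and no count filter (6 and 1) stayed within 1.5 times. The 5 ligands DESeq2 called were Wnt3a, Wnt6, Wnt8a, Wnt8b and Wnt9a, and the 12 genes of the block included all 8 ligands called without it. Of the other pathway and target genes, 5 higher and 1 lower became 18 and 21 with the block, 10 and 13 without both replicate 2 libraries, 1 and 0 with a 2-fold minimum, and 0 to 8 and 0 to 4 without 1 library. The lower count was 6 with DESeq2 and 0 with library totals. At an unadjusted p under 0.05, edgeR gave 7 and 8 of them higher in the fits with 0 called higher, 7 to 11 lower in the fits without 1 library that called 0 lower, and 5 lower with library totals. Selected genes lower at that level were 6 with the 1 CPM filter and 3 with library totals. Log2 ratios of class sums were 0.51 for ligands, -0.46 for antagonists, -0.15 for receptors, -0.50 for Porcn, 0.02 for the destruction complex and 0.03 for beta-catenin and its partners. With library totals, which moved the median of all genes from 0.01 to 0.09, the receptors had -0.0664, the destruction complex 0.10 and the beta-catenin group 0.11. Within replicate number 1 the replicate pair gave 0.11 for the destruction complex and -0.81 for Porcn, within number 3 -0.0438 for the destruction complex, and within number 2 -0.0128 for the beta-catenin group. The cause of these shifts was not tested. Depth limits the ligands with few control reads, such as Wnt10b with 2, 1 and 2, where 1 read more or less moves the ratio.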

Other observations

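Several called ligand genes lie beside another ligand gene, a feature noticed after their values were seen and not tested. In GENCODE vM21 (GRCm38), 8 ligand genes have another ligand as the nearest coding neighbour on 1 side, in the pairs Wnt3a and Wnt9a, Wnt9b and Wnt3, Wnt6 and Wnt10a, and Wnt10b and Wnt1. Of these 8, 6 were called higher, Wnt3 was not called and Wnt1 was not tested. Of the 11 ligands with no such neighbour, 2 were called higher, Wnt8a and Wnt8b. Over all genes tested 4.93% were called higher, and 15.8% of those under 1 CPM in RC. Wnt10a, Wnt10b and Wnt9b reached the count filter's minimum in 0 RC libraries, and Wnt8b in 1. These counts are therefore not support for a difference by neighbour. The coding genes flanking the pairs were not called. Beside Wnt3a and Wnt9a, Arf1 had means of 407 and 387 CPM and Prss38 0.534 and 0.732 CPM in RC and LINE1 ASO libraries. Beside Wnt9b and Wnt3, Gosr2 had 88.0 and 96.7 CPM and Nsf 135 and 125 CPM, and the replicate block called Gosr2 higher. Beside Wnt6 and Wnt10a, Prkag3 had 0.544 and 0.631 CPM and Cdk5r2 1.85 and 2.43 CPM. Beside Wnt10b and Wnt1, Arf3 had 221 and 222 CPM, and Ddn did not pass the count filter. In GENCODE vM21 neither Wnt9b nor Wnt3 overlaps another gene. Their RefSeq start regions lie apart on opposite strands, at chr11:103749772-103750071 (minus) for Wnt9b and chr11:103773925-103774224 (plus) for Wnt3.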
